A study of Mus musculus with 8 samples.

Results

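Chromatin remodelers outside the SWI/SNF family were examined as a set of 36 genes: CHD proteins (6 genes outside NuRD), the NuRD complex (12), ISWI ATPases with their partner subunits (8), the INO80, SRCAP and EP400 complexes (5) and other remodelers with an ATPase subunit of their own (5). The genes were listed by complex, a rule that uses no measured value, though the list was chosen with earlier results of these data known. All 36 were found among the 39089 genes of the deposited tables. RNA-seq was performed on cells that the study sorted as epithelium from subcutaneous tumors of Myc-CaP cells, which derive from a *Myc*-transgenic mouse prostate carcinoma, in FVB mice whose age the labels give as 6 weeks. In the WT groups the cells carried a control vector. In the *Arid1a* KO groups they expressed a guide RNA against *Arid1a*, a DNA-binding subunit of SWI/SNF. Tumors of each genotype received vehicle or JSH-23, an inhibitor of nuclear entry of the NF-κB subunit p65, for 2 weeks from day 16, giving 4 groups of 2 samples. The sources used here do not say whether the KO cells were 1 clone or how tumors were assigned to samples, so p-values measure the spread between these samples, which may be technical.

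Remodelers use ATP hydrolysis to slide, eject or exchange nucleosomes, and thereby set which DNA is open to transcription factors. NuRD couples a CHD ATPase to histone deacetylases and methyl-CpG-binding proteins. ISWI enzymes space nucleosomes, INO80, SRCAP and EP400 exchange or reposition the histone variant H2A.Z, and ATRX and HELLS act at repeats and heterochromatin. SWI/SNF, to which ARID1A belongs, shares the genome with these machines, and the comparisons ask how their transcripts varied with *Arid1a* loss and with JSH-23.

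*Arid1a* was at 156 and 161 CPM (counts scaled to a common library size with TMM factors) in WT tumors with vehicle and at 103 and 106 CPM in vehicle-treated *Arid1a* KO tumors. The log2 fold change between genotypes was -0.60 with vehicle and -0.66 with JSH-23, so the targeted transcript was lower in the KO samples and still present. Total counts ranged from 16401581 to 21972231 per sample, where 3 counts equalled 0.144 to 0.182 CPM on this scale, a limit that covers counting error only. The counts of replicates differed beyond sampling noise (chi-square per degree of freedom 1.46 to 1.57). *Epcam*, the surface marker by which the study sorted prostate epithelium of other mice (the sort of these tumors is not specified further), had 0 to 4 counts in the 8 samples and *Cdh1* 1 to 19 counts, whereas *Krt8* had 540 to 2308 counts. *Ptprc*, which encodes CD45, had 0 to 10 counts. The near absence of *Epcam* and *Cdh1* transcripts goes against the epithelial label, so the cells are called tumor cells here only by that label. The summed level of 5 epithelial markers was 61.9 to 68.3 CPM in WT and 122 to 124 CPM in vehicle-treated *Arid1a* KO tumors, and 39.9 to 41.9 and 110 to 115 CPM with JSH-23. *Krt8* made up most of that sum. The sum of 7 fibroblast markers was 42.0 to 43.6 CPM in *Arid1a* KO tumors with JSH-23 and 61.3 to 66.2 CPM elsewhere, and nearly all of it was *Pdgfra*, at 38.0 and 38.5 CPM against 53.3 to 61.3 CPM. For 10 leukocyte markers the sum was 18.5 to 19.9 CPM in WT and 20.0 to 22.2 CPM in *Arid1a* KO samples with vehicle, and 10.2 to 18.5 and 10.1 to 12.8 CPM with JSH-23. Its members did not move together, since with vehicle *Cd68* was at 6.53 and 7.47 CPM in WT and 16.6 and 18.3 CPM in KO samples, while *Lyz2* was at 9.74 and 9.70 and at 2.98 and 3.44 CPM. *Itgam* and *Adgre1* had 0 counts in both KO samples with vehicle. For 4 endothelial markers the sum ran from 0.533 to 1.68 CPM. The part of these shifts in the results that follow was not tested. In these bulk samples, fewer cells of a type and less RNA per cell cannot be told apart.

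Of the 36 remodeler genes, 34 passed the filter on low counts and were tested. *Smarca1*, the ISWI ATPase SNF2L, had 0 to 2 counts in any sample, at or under the limit of detection, and *Cecr2*, its bromodomain partner, had 0 to 5 counts. The tested genes were well measured, with a median level of 101 CPM against 25.1 CPM over all 13921 genes tested. On the length-scaled TPM values, which allow levels of different genes to be compared, the most abundant transcript in WT tumors with vehicle was *Mta1* at 219 ± 3.74 TPM (SD, n = 2), followed by *Ruvbl2* at 168 ± 5.49, *Chd4* at 153 ± 2.22 and *Mbd3* at 110 ± 2.79 TPM. *Smarca5* at 103 ± 3.28 and *Mta2* at 101 ± 0.534 TPM did not differ beyond their spread. Among the CHD ATPases of NuRD, *Chd4* and *Chd3* (81.5 ± 0.332 TPM) were abundant, while *Chd5*, best known from neurons and as a tumor suppressor, was the lowest tested gene at 1.45 ± 0.0945 TPM.

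**Figure D1:**
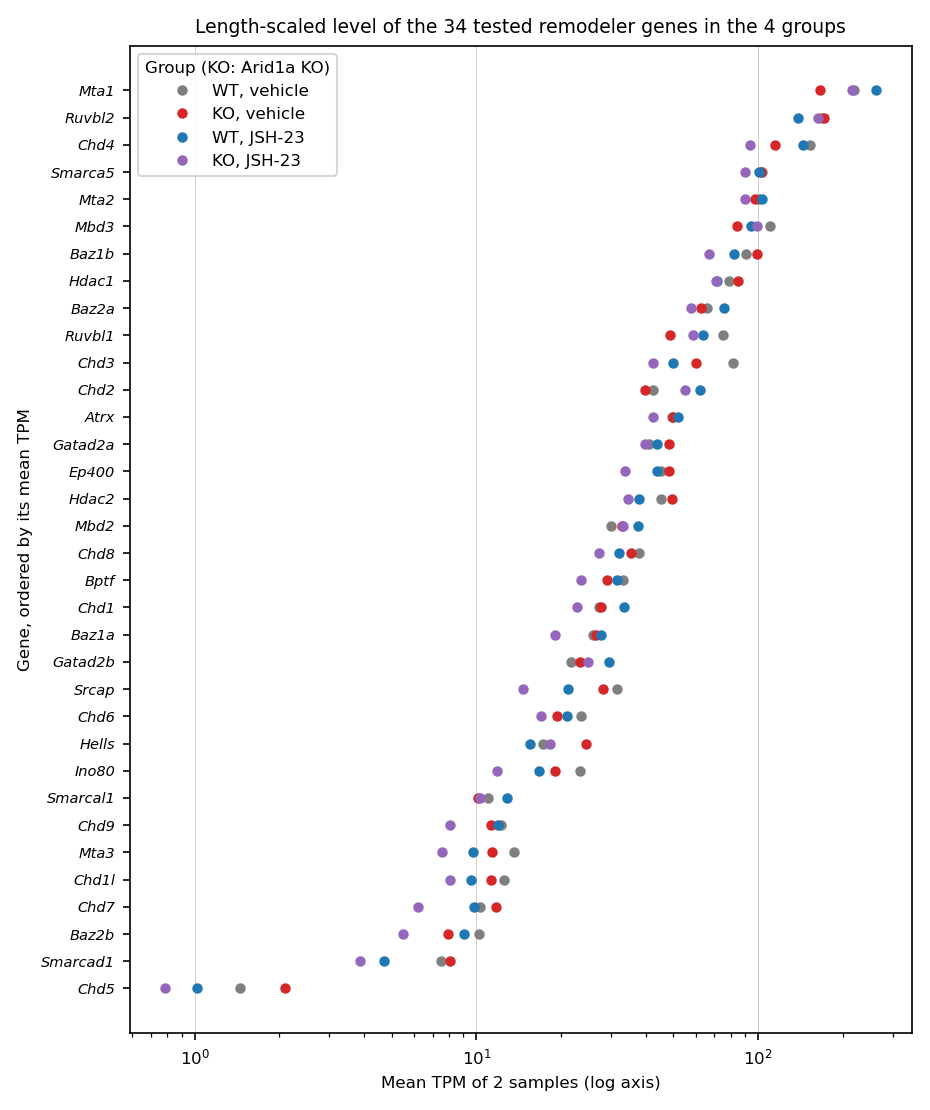
Mean TPM of the 2 samples in each group (horizontal log axis) for the 34 tested remodeler genes, ordered by their mean over the groups, with a colour for each group. *Mta1* stood at the top in WT tumors with vehicle (219 TPM) and *Chd5* at the bottom (1.45 TPM).

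Most remodeler genes changed by small amounts in each comparison, and more of them were lower than higher. With vehicle, 8 of 34 genes (23.5%) were higher and 15 (44.1%) lower with *Arid1a* loss at an adjusted p under 0.05, whereas 25.0% of all genes tested were higher and 25.5% lower. With JSH-23, 4 genes (11.8%) were higher and 16 (47.1%) lower in *Arid1a* KO tumors, against 23.2% and 23.8% of all genes. JSH-23 raised 10 genes (29.4%) and lowered 15 (44.1%) in WT tumors, against 28.6% and 27.2% of all genes. In *Arid1a* KO tumors it raised 10 (29.4%) and lowered 17 (50%), against 33.4% and 34.4% of all genes. The change with JSH-23 itself differed between genotypes for 20 genes, more positive in *Arid1a* KO tumors for 7 (20.6%) and more negative for 13 (38.2%), against 20.5% and 17.9% of all genes.

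The median log2 fold change of the 34 genes lay between -0.0528 and -0.0933 in the 5 comparisons, where that of all genes tested lay between -0.0202 and 0.0032. These splits moved with the scaling. On log2(TPM + 1) values, higher and lower calls became 4 and 11 for KO against WT with vehicle, 2 and 26 with JSH-23, 6 and 16 for JSH-23 in WT tumors, 4 and 27 in *Arid1a* KO tumors and 5 and 19 for the interaction, while the median of all genes moved to between -0.2045 (JSH-23 in *Arid1a* KO tumors) and 0.0084. Of all 13921 genes tested, that scale called 3269 higher and 3203 lower for KO against WT with vehicle and 1252 and 5793 with JSH-23. It called 3214 and 4029 for JSH-23 in WT tumors, 2320 and 6878 in *Arid1a* KO tumors and 1040 and 4536 for the interaction. With library size alone the splits of the members were 7 and 23 for JSH-23 in *Arid1a* KO tumors and 5 and 16 for the interaction. For all genes these were 3580 and 5913, and 1854 and 3750. The sign of some small changes that involve *Arid1a* KO tumors with JSH-23 therefore depended on the scaling, and these are given beside each gene.

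At a change of at least 1.5-fold as well, far fewer remodeler genes were called. There was 1 with *Arid1a* loss under vehicle (2.94%, against 12.6% of all genes), 0 with *Arid1a* loss under JSH-23 (against 8.71%), 3 with JSH-23 in WT tumors (8.82%, against 15.8%), 6 with JSH-23 in *Arid1a* KO tumors (17.6%, against 26.0%) and 4 for the interaction (11.8%, against 9.07%). The count of 0 came from edgeR, where no member reached 1.5-fold at any p (lowest, *Baz2b* at -0.53), and DESeq2 also gave 0. These calls fell on 9 genes, *Chd2*, *Chd3*, *Chd5*, *Chd7*, *Mta1*, *Mbd3*, *Srcap*, *Ruvbl1* and *Smarcad1*. In the pairwise comparisons among these calls the samples of the groups compared did not overlap. This adds no separate support, since the calls were selected for a difference between the same samples. With 2 samples a group, genes without a call also separated, as *Chd3* did between genotypes under JSH-23 (edgeR adjusted p = 0.334). An interaction sets 4 groups against each other, and overlap was not assessed for it.

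**Figure D2:**
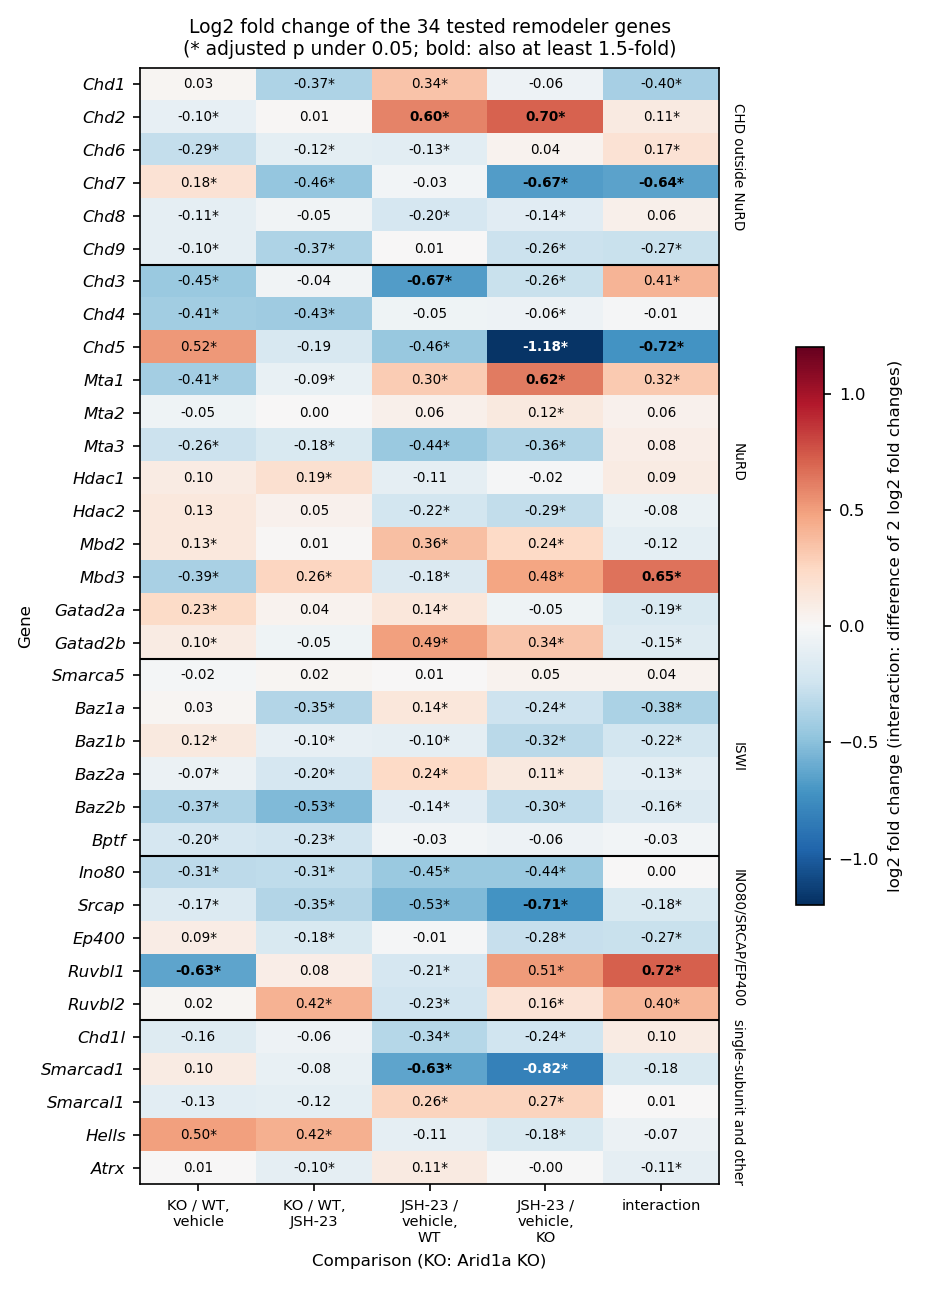
Log2 fold change of the 34 tested remodeler genes (rows, by complex) in the 4 comparisons and the interaction (columns), in colour and digits. An asterisk marks an adjusted p under 0.05 and bold a change of at least 1.5-fold as well. *Smarca5* carried no asterisk in any column, and the deepest fall was that of *Chd5* with JSH-23 in *Arid1a* KO tumors (-1.18).

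In NuRD, with 12 members tested, the ATPase *Chd4* was lower with *Arid1a* loss under either treatment, whereas *Chd3*, *Mta1* and *Mbd3* were lower under vehicle and less so, or not, under JSH-23. *Chd4*, the main NuRD ATPase, was at 408 and 416 CPM in WT and at 310 and 309 CPM in vehicle-treated *Arid1a* KO tumors, and at 395 and 402 and at 301 and 292 CPM with JSH-23. Both KO groups lay below both WT groups without overlap. The log2 fold change was -0.41 (standard error 0.023, adjusted p = 1.02e-25) with vehicle and -0.43 with JSH-23, and the interaction was -0.01 (adjusted p = 0.795). That these effects were nearly equal depended on the scaling. Under vehicle, mean TPM of *Chd4* was 153 ± 2.22 for WT against 115 ± 0.195 for KO samples (SD, n = 2). Under JSH-23 the gap was wider, at 144 ± 1.43 against 93.6 ± 2.34 TPM.

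*Chd3*, the alternative ATPase, was highest in WT tumors with vehicle, at 257 and 258 CPM, and lower in every other group: 186 and 191 CPM in vehicle-treated *Arid1a* KO tumors, 160 and 163 CPM in JSH-23-treated WT tumors and 159 and 156 CPM in *Arid1a* KO tumors with JSH-23. Thus *Arid1a* loss went with a log2 fold change of -0.45 under vehicle (adjusted p = 9.62e-23) and of -0.04 under JSH-23 (adjusted p = 0.334). The value under JSH-23, and with it the size of the interaction, depended on the scaling. With JSH-23 mean TPM was 49.8 ± 0.542 in WT and 42.5 ± 0.944 in *Arid1a* KO tumors (SD, n = 2). With JSH-23 *Chd3* fell in WT tumors (-0.67, a 1.59-fold fall) and in *Arid1a* KO tumors (-0.26). The interaction of 0.41 (standard error 0.0416, adjusted p = 4.17e-13) had the smallest p of the set. *Chd5* was at 5.82 and 5.29 CPM in WT and 7.73 and 8.23 CPM in vehicle-treated *Arid1a* KO tumors, and fell to 4.36 and 3.71 and to 3.68 and 3.41 CPM with JSH-23. Its log2 fold change with JSH-23 was -1.18 in *Arid1a* KO (standard error 0.164) and -0.46 in WT tumors. The interaction of -0.72 (-0.51 on the log2(TPM + 1) scale) had the largest adjusted p of the 1.5-fold calls, 0.015, which rose to 0.105 when replicate 1 of WT tumors with JSH-23 was left out.

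*Mta1*, a scaffold subunit of NuRD, was at 266 and 272 CPM in WT and at 199 and 206 CPM in vehicle-treated *Arid1a* KO tumors. With JSH-23 it was at 335 and 329 and at 311 and 312 CPM, above both vehicle groups. That order depended on the scaling. With JSH-23 mean TPM was 263 in WT and 216 in *Arid1a* KO tumors, against 219 and 166 with vehicle. The genotype difference was -0.41 with vehicle and -0.09 with JSH-23, and the rise with JSH-23 was 0.30 in WT and 0.62 in *Arid1a* KO tumors (interaction 0.32, adjusted p = 1.16e-11). The latter rise was 0.51 when only library size was used for scaling and 0.38 on the log2(TPM + 1) scale.

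*Mbd3*, the methyl-CpG-binding-domain subunit that defines 1 form of NuRD, moved in opposite directions with JSH-23 in the 2 genotypes. It was at 70.2 and 72.6 CPM in WT and 54.0 and 55.0 CPM in vehicle-treated *Arid1a* KO tumors, and at 64.9 and 61.5 and at 71.7 and 79.8 CPM with JSH-23. The lowest group was therefore *Arid1a* KO with vehicle, and with JSH-23 the order of the genotypes was the reverse. With JSH-23 *Mbd3* fell in WT tumors (-0.18, adjusted p = 0.00292) and rose in *Arid1a* KO tumors (0.48, adjusted p = 3.24e-13), an interaction of 0.65 that was 0.45 on the log2(TPM + 1) scale.

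The other NuRD members were not called at 1.5-fold. *Mbd2*, which defines the other form of NuRD, rose with JSH-23 in both genotypes (0.36 in WT and 0.24 in *Arid1a* KO). So did the GATA-type zinc finger subunit *Gatad2b* (0.49 and 0.34). In *Arid1a* KO tumors both rises depended on the scaling. From vehicle to JSH-23, mean TPM there went from 33 to 33.1 for *Mbd2* and from 23.3 to 24.9 for *Gatad2b*. *Mta3* fell with JSH-23 (-0.44 and -0.36) and was also lower with *Arid1a* loss (-0.26 and -0.18). The deacetylase *Hdac2* fell with JSH-23 (-0.22 and -0.30), and *Hdac1*, the other deacetylase, was 0.19 higher in *Arid1a* KO tumors under JSH-23, a value that turned to -0.0052 on the log2(TPM + 1) scale. *Mta2* was called in 1 comparison, at 0.12 with JSH-23 in *Arid1a* KO tumors, where the log2(TPM + 1) value was -0.1184.

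**Figure D3:**
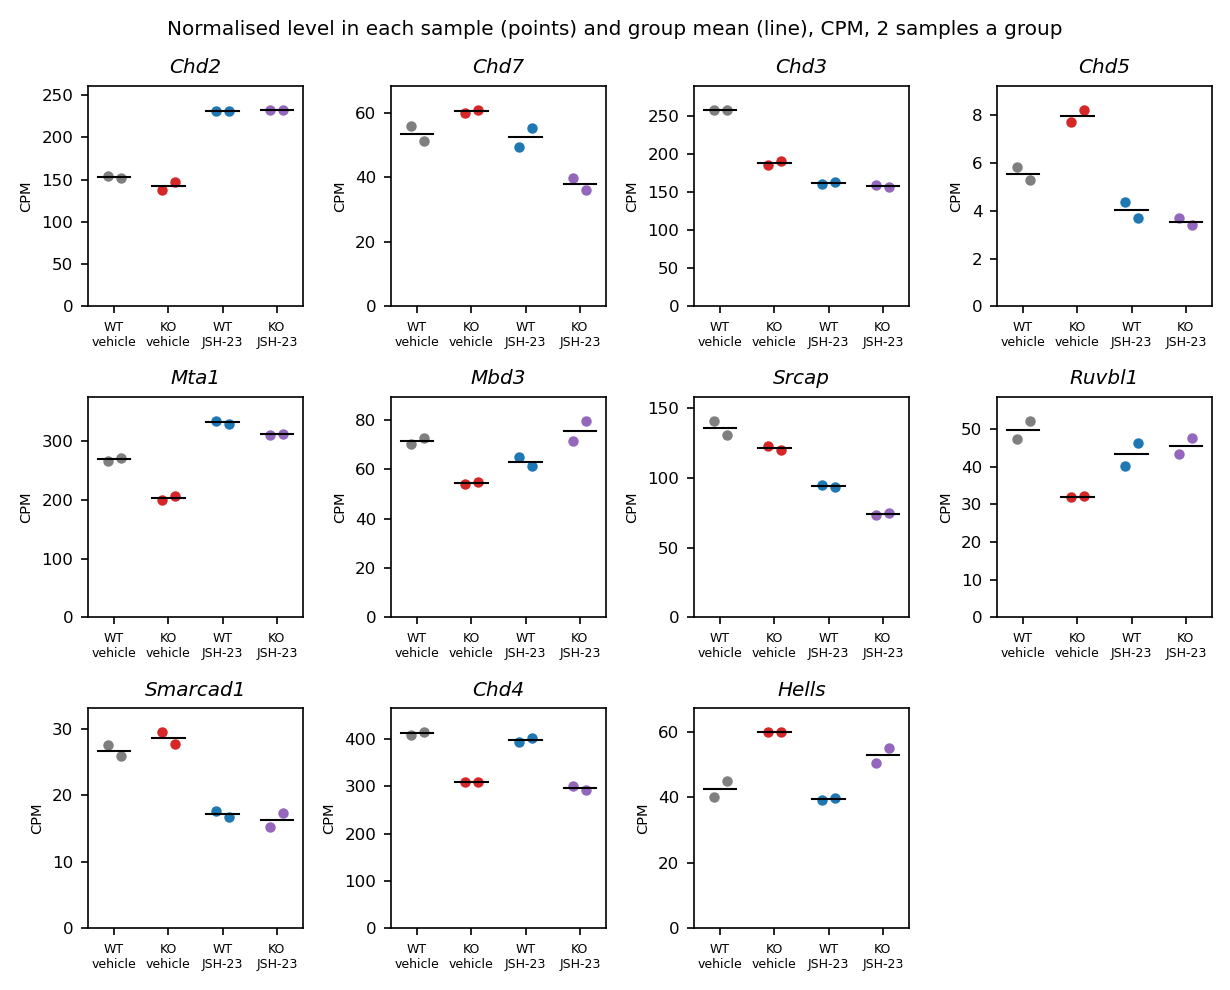
Normalised level (CPM, vertical axes from 0) of the 9 genes called at 1.5-fold, and of *Chd4* and *Hells*, in each sample (points), with the mean of each group of 2 (lines). *Chd4* separated by genotype, at 408 and 416 CPM against 310 and 309 CPM with vehicle, *Smarcad1* and *Chd2* separated by treatment, and *Ruvbl1* and *Mbd3* were lowest in vehicle-treated *Arid1a* KO tumors.

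Among the CHD ATPases outside NuRD, *Chd2* rose with JSH-23 in both genotypes, *Chd1* rose in WT tumors and *Chd7* fell in *Arid1a* KO tumors. *Chd2*, which deposits the histone variant H3.3 at active genes and is linked to epilepsy in people, was at 154 and 152 CPM in WT and 138 and 147 CPM in vehicle-treated *Arid1a* KO tumors. With JSH-23 it was at 231 and 231 and at 233 and 233 CPM, so the treated groups lay above the vehicle groups with no overlap and close to each other. Its log2 fold change was 0.60 in WT (adjusted p = 3.3e-27) and 0.70 in *Arid1a* KO tumors (adjusted p = 1.66e-32). On the log2(TPM + 1) scale these were 0.54 and 0.46, under 1.5-fold. The small interaction of 0.11 reversed there to -0.0849. *Chd2* (chromosome 7, 73426652 to 73541746, minus strand) overlaps the noncoding gene *Chaserr* on the same strand, so part of its count is uncertain. Of the other genes of the set, *Atrx* overlaps *Gm14853* (1727 counts over the 8 samples) and *Ruvbl1* overlaps *Gm46965* (228 counts) in the same way.

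*Chd1*, which binds histone H3 methylated at lysine 4 and is often deleted in prostate cancer, was at 85.0 and 85.8 CPM in WT and 85.8 and 88.0 CPM in vehicle-treated *Arid1a* KO tumors. It was at 106 and 110 CPM in WT tumors with JSH-23 but at 83.9 and 83.1 CPM in *Arid1a* KO tumors with JSH-23. The treated WT group stood above the other groups, and the interaction was -0.40 (standard error 0.0582, adjusted p = 3.01e-08). *Chd7*, mutated in CHARGE syndrome and active at enhancers, showed the other form of this difference. Its level was 55.8 and 51.2 CPM in WT and 59.9 and 61.0 CPM in vehicle-treated *Arid1a* KO tumors, then 49.4 and 55.3 CPM and 39.9 and 36.2 CPM with JSH-23. JSH-23 thus lowered *Chd7* in *Arid1a* KO tumors (-0.67, adjusted p = 3.05e-16), while in WT tumors the value was -0.03 (adjusted p = 0.662) and the groups overlapped. The interaction was -0.64, and -0.55 without replicate 2 of *Arid1a* KO tumors with JSH-23.

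*Chd9* followed *Chd7* in direction, with -0.26 in *Arid1a* KO and 0.01 in WT tumors (interaction -0.27). *Chd8*, an inhibitor of β-catenin targets and an autism risk gene, was lower with JSH-23 in both genotypes (-0.20 and -0.14). *Chd6*, linked to the oxidative stress response, was lower with *Arid1a* loss under vehicle (-0.29) and under JSH-23 (-0.12).

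In the ISWI family the ATPase itself did not pass the test on TMM-scaled counts while each of its 5 tested partner subunits did in at least 1 comparison. *Smarca5* (SNF2H) was at 185 and 194 CPM in WT and 187 and 187 CPM in vehicle-treated *Arid1a* KO tumors, and at 189 and 193 and at 193 and 193 CPM with JSH-23. Its log2 fold changes ran from -0.02 to 0.05, with standard errors of 0.029 or 0.030 and adjusted p values of 0.145 to 0.841. This depended on the scaling: on log2(TPM + 1) values JSH-23 went with -0.19 in *Arid1a* KO tumors (adjusted p = 0.000676) and the genotype difference under JSH-23 was -0.17 (adjusted p = 0.00188), and with library size alone the former was -0.07 (adjusted p = 0.0329). *Baz2b*, a bromodomain subunit, was lower with *Arid1a* loss under vehicle (-0.37) and under JSH-23 (-0.53, adjusted p = 9.4e-17), the lowest log2 fold change of the set in the latter comparison. *Bptf*, the NURF subunit that reads methylated histone H3, was also lower (-0.20 and -0.23). *Baz1a* (ACF1) and *Baz1b* (WSTF, deleted in Williams syndrome) were lower in *Arid1a* KO tumors under JSH-23, at -0.35 and -0.10, while under vehicle *Baz1a* had 0.03 (adjusted p = 0.7) and *Baz1b* was higher by 0.12. The interactions were -0.38 and -0.22. *Baz2a* (TIP5), the ribosomal gene silencer, rose with JSH-23 in WT tumors (0.24), and in *Arid1a* KO tumors its 0.11 turned to -0.1201 on the log2(TPM + 1) scale.

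Among the INO80, SRCAP and EP400 genes, *Ino80* and *Srcap* were lower with *Arid1a* loss and lower with JSH-23, and the shared AAA+ ATPases *Ruvbl1* and *Ruvbl2* changed differently in the 2 genotypes. *Ino80* was at 71.1 and 65.5 CPM in WT and 56.3 and 53.9 CPM in vehicle-treated *Arid1a* KO tumors, and at 49.4 and 50.9 and at 38.8 and 42.1 CPM with JSH-23. No groups overlapped, and *Arid1a* KO tumors with JSH-23 were lowest. Loss of *Arid1a* went with -0.31 under either treatment and JSH-23 with -0.45 and -0.44, so the interaction was 0.00 (standard error 0.081, adjusted p = 0.989).

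*Srcap*, the ATPase that deposits H2A.Z, showed the same order of groups. It was at 141 and 131 CPM in WT and 123 and 120 CPM in vehicle-treated *Arid1a* KO tumors, and at 94.9 and 93.4 and at 73.3 and 74.7 CPM with JSH-23. The effect of JSH-23 was -0.53 in WT and -0.71 in *Arid1a* KO tumors (adjusted p = 1.09e-25), and that of *Arid1a* loss -0.17 and -0.35. *Ep400* was at 212 and 213 CPM in WT and 222 and 228 CPM in vehicle-treated *Arid1a* KO tumors, and at 209 and 213 and at 185 and 186 CPM with JSH-23. The treated KO tumors alone stood lower, with -0.28 in *Arid1a* KO and -0.01 in WT tumors (interaction -0.27).

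*Ruvbl1* (Pontin), part of all these complexes and of other assembly machines, was at 47.2 and 52.2 CPM in WT and 31.9 and 32.1 CPM in vehicle-treated *Arid1a* KO tumors. With JSH-23 it was at 40.2 and 46.3 CPM and at 43.3 and 47.7 CPM, where the genotypes overlapped. The fall with *Arid1a* loss under vehicle was -0.63 (standard error 0.067, adjusted p = 9.6e-13), the sole 1.5-fold change of the set in that comparison, and -0.56 without replicate 2 of WT tumors with vehicle. In *Arid1a* KO tumors it rose with JSH-23 (0.51), in WT tumors it fell (-0.21), and the interaction was 0.72, or 0.50 and under 1.5-fold on the log2(TPM + 1) scale. *Ruvbl2* (Reptin), which forms a ring with RUVBL1, was at 209 and 200 CPM in WT and 207 and 207 CPM in vehicle-treated *Arid1a* KO tumors, and at 175 and 172 and at 229 and 235 CPM with JSH-23. Its level did not separate the genotypes under vehicle (0.02, adjusted p = 0.616) but did so under JSH-23 (0.42, adjusted p = 1.49e-20). The interaction was 0.40 (adjusted p = 5.36e-13), made up of a fall in WT (-0.23) and a value in *Arid1a* KO tumors of 0.16, which reversed to -0.0735 on the log2(TPM + 1) scale. Hence the subunits of the ring did not share a pattern under vehicle, while the interaction had the same sign for both.

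**Figure D4:**
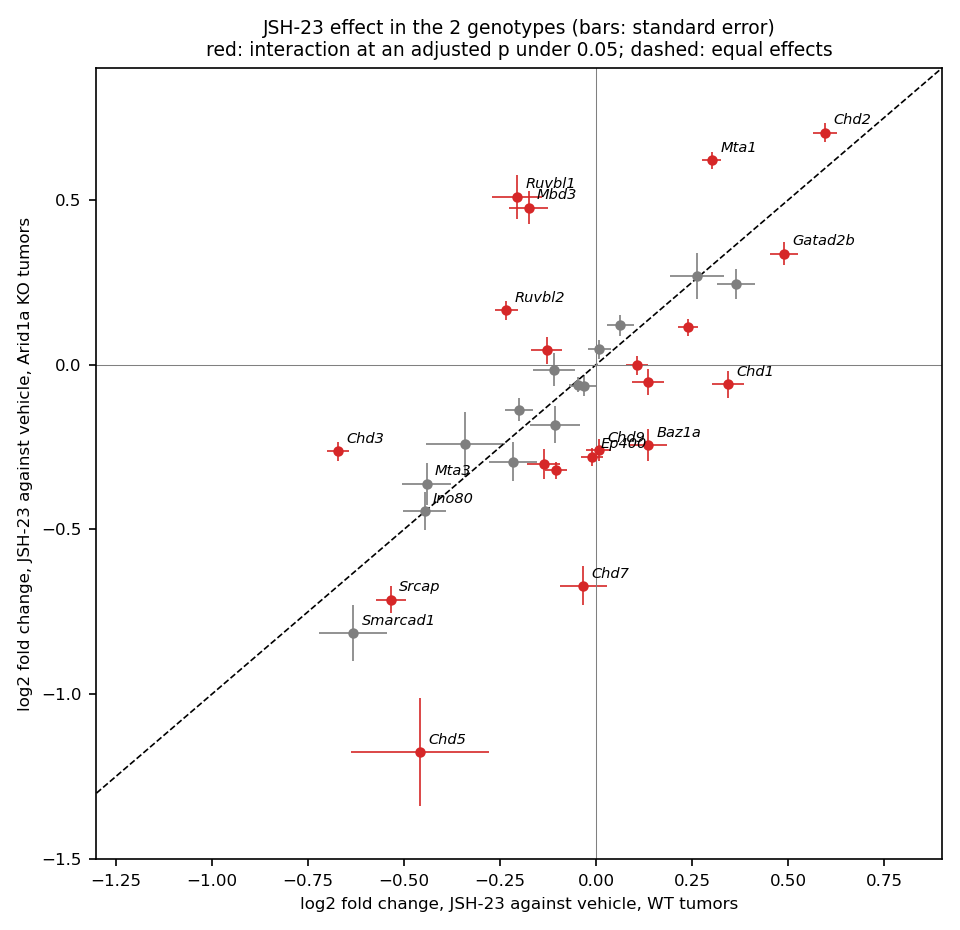
Log2 fold change with JSH-23 in WT tumors (horizontal axis) and in *Arid1a* KO tumors (vertical axis) of the 34 tested remodeler genes, with standard errors. The dashed line marks equal effects, and red points mark interactions that passed the test. *Ruvbl1*, *Mbd3* and *Ruvbl2* lay in the upper left (interactions of 0.72, 0.65 and 0.40), *Chd7* and *Chd5* far below the line (-0.64 and -0.72), and *Ino80* near it (0.00).

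Of the remaining remodelers, *Hells* was higher with *Arid1a* loss and *Smarcad1* was lower with JSH-23. *Hells* (LSH), a helper of DNA methylation that is made in dividing cells, was at 40.0 and 44.9 CPM in WT and 59.8 and 60.0 CPM in vehicle-treated *Arid1a* KO tumors, and at 39.1 and 39.8 and at 50.4 and 55.1 CPM with JSH-23. The KO samples lay above the WT samples under each treatment, with log2 fold changes of 0.50 (adjusted p = 4.88e-11) and 0.42 (adjusted p = 1.63e-08). In the same samples 9 of 10 cell cycle genes were higher and 1 lower with *Arid1a* loss under vehicle, and 10 of 10 were higher under JSH-23. Of all genes tested, 25.0% were higher and 25.5% lower under vehicle, and 23.2% were higher under JSH-23. The summed level of the cell cycle genes was 2580 to 2590 CPM in WT and 3020 to 3050 CPM in vehicle-treated *Arid1a* KO tumors. With JSH-23 it was 1920 CPM in WT and 2700 to 2750 CPM in *Arid1a* KO tumors. The part of the cell cycle genes in the *Hells* difference was not tested. With JSH-23, 9 of the 10 cell cycle genes fell in WT and 8 in *Arid1a* KO tumors, with medians of -0.85 and -0.55, where *Hells* had -0.11 (adjusted p = 0.156) and -0.18 (adjusted p = 0.00302). Of all genes tested, 27.2% fell with JSH-23 in WT and 34.4% in *Arid1a* KO tumors.

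*Smarcad1*, a nucleosome-sliding ATPase for DNA end resection and heterochromatin upkeep, was at 27.6 and 25.9 CPM in WT and 29.6 and 27.8 CPM in vehicle-treated *Arid1a* KO tumors. With JSH-23 it was at 17.6 and 16.8 CPM and at 15.2 and 17.3 CPM. Treatment separated the samples while the genotypes overlapped under JSH-23. The log2 fold change with JSH-23 was -0.63 in WT (-0.58 on the log2(TPM + 1) scale) and -0.82 in *Arid1a* KO tumors (adjusted p = 1.96e-13), and the interaction of -0.18 did not pass (adjusted p = 0.252). *Atrx*, which deposits H3.3 at repeats with DAXX, stayed within a narrow range on the CPM scale. It was at 199 and 203 CPM in WT and 201 and 203 CPM in vehicle-treated *Arid1a* KO tumors, and at 218 and 215 and at 202 and 201 CPM with JSH-23. The treated WT tumors stood above the other groups (0.11 against vehicle, adjusted p = 0.000989). This depended on the scaling, since mean TPM was 42.3 in *Arid1a* KO tumors with JSH-23 and 49.5 to 51.8 in the other groups. *Chd1l* (ALC1), recruited by poly(ADP-ribose), fell with JSH-23 (-0.34 and -0.24), and *Smarcal1*, a replication fork annealing helicase, rose by 0.26 and 0.27. The latter rise depended on the scaling, since mean TPM of *Smarcal1* in *Arid1a* KO tumors was 10.1 with vehicle and 10.3 with JSH-23.

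The promoters of 4 genes called at 1.5-fold are shown because these genes formed pairs with a like pattern and because their RefSeq start (GRCm38.p6) was the start of the deposited gene. *Ruvbl1* and *Mbd3* were lowest in vehicle-treated *Arid1a* KO tumors, and *Srcap* and *Smarcad1* were lower with JSH-23 in both genotypes. Each line gives the 250 bases before the start, on the strand of the gene. Capitals mark matches on either strand to a loose NF-κB motif, GGGNNNNNCC, an E-box, CACGTG, or a cAMP response element, TGACGTCA. The positions are chr6:88465159-88465408 (plus strand) for *Ruvbl1*, chr10:80399532-80399781 (minus) for *Mbd3*, chr7:127511733-127511982 (plus) for *Srcap* and chr6:65042341-65042590 (plus) for *Smarcad1*.
Ruvbl1: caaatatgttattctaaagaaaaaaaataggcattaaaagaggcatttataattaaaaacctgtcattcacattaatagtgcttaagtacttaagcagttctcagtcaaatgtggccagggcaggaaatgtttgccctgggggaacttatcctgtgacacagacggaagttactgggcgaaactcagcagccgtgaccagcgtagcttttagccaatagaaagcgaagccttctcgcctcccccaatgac
Mbd3: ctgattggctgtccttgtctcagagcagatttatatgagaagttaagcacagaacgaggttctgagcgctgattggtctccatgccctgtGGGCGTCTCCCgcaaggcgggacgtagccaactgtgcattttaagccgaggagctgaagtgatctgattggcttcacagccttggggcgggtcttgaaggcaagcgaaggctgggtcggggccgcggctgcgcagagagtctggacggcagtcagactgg
Srcap: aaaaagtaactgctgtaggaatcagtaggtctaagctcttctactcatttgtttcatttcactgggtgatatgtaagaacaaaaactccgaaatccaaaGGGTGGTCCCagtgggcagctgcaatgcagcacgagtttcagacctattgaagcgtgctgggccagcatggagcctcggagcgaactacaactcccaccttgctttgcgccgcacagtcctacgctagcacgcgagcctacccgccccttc
Smarcad1: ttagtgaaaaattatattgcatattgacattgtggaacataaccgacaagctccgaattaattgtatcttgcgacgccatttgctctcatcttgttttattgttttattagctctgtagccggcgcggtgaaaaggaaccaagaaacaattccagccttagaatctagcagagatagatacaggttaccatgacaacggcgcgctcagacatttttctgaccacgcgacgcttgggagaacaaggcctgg
The NF-κB letters were found in the windows of *Mbd3*, where 2 matches overlap on opposite strands, and *Srcap*, and not in those of *Ruvbl1* and *Smarcad1*, so neither pair shared them. Of the 27 remodeler genes with a window, 18 (66.7%) held these letters, against 45.8% of the 32851 windows in the table. The 2 shares come from unlike sets. Each member had 1 window, the nearest to its start, while the windows of the table were not reduced in this way or limited to tested genes. The members' windows were also richer in CG, with a median of 18 CG dinucleotides against 6. The E-box was in 1 window (3.7%, against 6.0%), that of *Bptf*, and the cAMP response element in 1 (3.7%, against 1.5%), that of *Baz2b*. A match is a description of the letters and not evidence of binding.

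Partner subunits of the same complexes, 35 genes that are not members of the set, passed the filter in full. With *Arid1a* loss 4 (11.4%) rose and 11 (31.4%) fell under vehicle, against 25.0% and 25.5% of all genes, and 9 (25.7%) rose and 6 (17.1%) fell under JSH-23, against 23.2% and 23.8%. With JSH-23, 8 (22.9%) rose and 16 (45.7%) fell in WT tumors, against 28.6% and 27.2%, and 13 (37.1%) rose and 8 (22.9%) fell in *Arid1a* KO tumors, against 33.4% and 34.4%. Interactions were positive for 9 (25.7%) and negative for 3 (8.57%), against 20.5% and 17.9%. At 1.5-fold the calls fell on 5 of them. With *Arid1a* loss 2.86% of the partners were called at 1.5-fold under vehicle and 0% under JSH-23, against 12.6% and 8.71% of all genes. With JSH-23 the shares were 5.71% in WT and 8.57% in *Arid1a* KO tumors, against 15.8% and 26.0%. For the interaction the share was 11.4%, against 9.07%. *Meaf6*, a subunit of the acetyltransferase module that joins EP400, was at 14.4 and 13.1 CPM in WT and 22.3 and 24.0 CPM in vehicle-treated *Arid1a* KO tumors, and at 7.37 and 10.5 and at 8.21 and 8.35 CPM with JSH-23. It was thus higher in KO tumors with vehicle (0.76) and fell with JSH-23 (-0.62 in WT and -1.48 in KO). *Uchl5*, the deubiquitinase that associates with INO80, rose with JSH-23 in *Arid1a* KO tumors by 1.05. *Yeats4*, a reader of acetylated histones in SRCAP and EP400, fell in both genotypes (-0.70 and -0.67). *Rbbp7*, a histone chaperone of NuRD, was at 498 and 501 CPM in WT and 413 and 415 CPM in vehicle-treated *Arid1a* KO tumors, and at 425 and 413 and at 593 and 604 CPM with JSH-23. The *Rbbp7* pattern gave an interaction of 0.78, and *Znhit1*, which SRCAP needs for H2A.Z exchange, one of 0.59.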

How the data were processed

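RNA-seq was available for 8 samples, 4 groups of 2, mapped to groups from the labels. The authors deposited whole-number read counts per gene, without normalization, and TPM values, each a count divided by gene length and scaled to a fixed sum. The build was GRCm38/mm10 and counting was by strand with HTSeq-count. The study's methods name TopHat2 as the aligner and the submitters' processing notes name HISAT2, so the aligner is uncertain. Best-match alignment can misplace reads between near-identical copies.

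Counts were filtered with filterByExpr (13921 of 39089 genes kept), scaled with TMM factors of 0.949 to 1.03 and fitted over all 8 samples with edgeR 4.0.16 (R 4.3.3) by the quasi-likelihood test with Benjamini-Hochberg adjustment over all genes tested. A call required an adjusted p under 0.05, and 1.5-fold where stated. The interaction is the log2 fold change with JSH-23 in *Arid1a* KO minus that in WT tumors. The common biological coefficient of variation was 1.61%. Scripts were tested on simulated data.

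The members and lists were chosen with earlier results of these data known. Values per sample are given for members called at 1.5-fold, the 3 with the smallest interaction p, and the ATPases *Chd1*, *Chd4*, *Smarca5*, *Ino80*, *Srcap*, *Ep400*, *Atrx* and *Hells*. Partner subunits have values where they were called at 1.5-fold. Alternatives were DESeq2 1.42.0, library size only, median-of-ratios factors, no filter, a minimum of 10 counts per sample, a replicate block, only the groups compared, log2(TPM + 1) or log2(TPM + 0.1) values in limma 3.58.1, a fixed coefficient of variation of 0.1, a test against 1.5-fold and leaving out each sample. Promoter windows came from RefSeq on GRCm38.p6, where 27 of 36 members matched. The overlap of *Chd2* with *Chaserr* was followed up after its values had been seen.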

Additional observations from a re-analysis of the deposited data

Results flagged for a closer look

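Between the genotypes, the change with JSH-23 differed for 20 of 34 tested remodeler genes (edgeR interaction, adjusted p under 0.05). Such interactions were positive in 20.5% and negative in 17.9% of all genes tested.

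More positive changes in *Arid1a* KO tumors were found for 7 genes. *Ruvbl1* had an interaction of 0.72, *Mbd3* of 0.65, *Chd3* of 0.41, *Ruvbl2* of 0.40, *Mta1* of 0.32, *Chd6* of 0.17 and *Chd2* of 0.11. In *Ruvbl1*, *Mbd3* and *Ruvbl2* JSH-23 moved the level down in WT and up in *Arid1a* KO tumors (for *Ruvbl2* not on log2(TPM + 1) values, where the KO change was -0.0735), whereas *Chd3* fell in both genotypes and *Mta1* rose in both. On log2(TPM + 1) values the interactions of *Chd2* (-0.0849) and *Chd6* (-0.0225) were negative.

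More negative changes were found for 13 genes. Interactions were -0.72 for *Chd5*, -0.64 for *Chd7*, -0.40 for *Chd1*, -0.38 for *Baz1a*, -0.27 for *Ep400*, -0.27 for *Chd9* and -0.22 for *Baz1b*. Smaller ones were -0.19 for *Gatad2a*, -0.18 for *Srcap*, -0.16 for *Baz2b*, -0.15 for *Gatad2b*, -0.13 for *Baz2a* and -0.11 for *Atrx*.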

How the results depend on the processing

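Over the alternatives, 232 of 272 counts of called members stayed within 1.5 times the reported count. Of 3040 gene values, 2676 stayed on their side of the threshold, 274 were weaker, 78 stronger and 12 reversed. Direction was compared only for values called in the reported edgeR fit. A value without a call that changed sign counted as unchanged, or as stronger where it became called. *Smarca5* with JSH-23 in *Arid1a* KO tumors was such a case on log2(TPM + 1) values. The 1.5-fold calls of *Chd3* with JSH-23 in WT and of *Chd5*, *Smarcad1* and *Srcap* with JSH-23 in *Arid1a* KO tumors held under every alternative.

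With DESeq2, 3 members were higher in KO tumors with vehicle and 6 interactions were negative. Over all genes, 2462 of 13921 were higher and 1538 of 12301 interactions were negative. With library size alone, 1 member passed 1.5-fold for KO against WT with JSH-23, against 1341 of 13921 genes. On log2(TPM + 1), 4 were higher with vehicle, 2 higher, 26 lower and 2 at 1.5-fold with JSH-23 between genotypes, 6 higher and 1 at 1.5-fold with JSH-23 in WT, 4 higher and 27 lower with JSH-23 in KO tumors, and 1 interaction was at 1.5-fold. Of all genes on log2(TPM + 1), 1058 were at 1.5-fold between genotypes with JSH-23, 1555 with JSH-23 in WT and 1490 for the interaction. On log2(TPM + 0.1) the member counts were 3, then 2, 26 and 3, then 6 higher, then 4 and 27. For all genes they were 3117, then 1264, 5858 and 1666, then 3173 higher, then 2322 and 6872. A coefficient of variation of 0.1 gave 2 higher and 5 lower (KO with vehicle), 2 and 3 (KO with JSH-23), 2 and 5 (JSH-23 in WT), 4 and 6 (JSH-23 in KO) and 2 and 0 (interaction, 2 at 1.5-fold). For all genes these were 1563 and 1306, 845 and 1049, 1585 and 2042, 2670 and 3348, and 252 and 495 (747 at 1.5-fold). The 0 negative interactions came from edgeR's likelihood ratio test (2 at an unadjusted p under 0.05), against 6 by DESeq2. An edgeR test against 1.5-fold kept 0 members for KO with vehicle (0 at an unadjusted p under 0.05), 1 for JSH-23 in WT and 0 interactions (1 unadjusted), where DESeq2 with 1.5-fold required gave 1, 3 and 3. Over all genes the edgeR test against 1.5-fold kept 682, 795 and 224, and DESeq2 gave 1351, 1747 and 885.

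Reversed values on log2(TPM + 1) and log2(TPM + 0.1) were -0.0052 and -0.0053 for *Hdac1* (KO against WT with JSH-23), -0.1201 and -0.1219 for *Baz2a*, -0.1184 and -0.1195 for *Mta2*, -0.0735 and -0.0739 for *Ruvbl2* (all JSH-23 in KO), and -0.0849 and -0.0856 for *Chd2* and -0.0225 and -0.0251 for *Chd6* (interaction). The cause was not tested.

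Leaving out each sample in turn gave 5 to 8 members higher and 0 to 2 at 1.5-fold in KO tumors with vehicle, and 8 to 11 negative and 2 to 4 1.5-fold interactions. The count of 5 came without replicate 2 of either vehicle group, that of 0, and of 8 and 2 interactions, without replicate 2 of WT with vehicle, that of 2 at 1.5-fold in KO tumors without replicate 1 of WT with vehicle (*Chd5* at 0.59 joined *Ruvbl1*), and that of 2 interactions also without replicate 2 of KO with JSH-23.

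The replicate number as a block changed no call, with 8 members higher and 15 lower in KO tumors with vehicle. Same-numbered samples deviated together at r of -0.024 to 0.031 over 6156 genes, so they share only a number. Depth limited *Smarca1* and *Cecr2*, and 2 samples a group limited every p.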

Other observations

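*Chaserr* is a long noncoding RNA gene next to *Chd2*, known from other systems to restrain *Chd2* in cis. It was looked at after the values of *Chd2* had been seen. *Chaserr* was at 35.9 and 38.6 CPM in WT and 46.6 and 47.0 CPM in vehicle-treated *Arid1a* KO tumors, and at 90.1 and 91.9 and at 157 and 156 CPM with JSH-23. Its log2 fold change with JSH-23 was 1.29 in WT and 1.74 in *Arid1a* KO tumors (edgeR, adjusted p = 1.27e-33 and 1.76e-46), in the same direction as that of *Chd2* and larger. No groups overlapped, and *Arid1a* KO tumors were higher under vehicle (0.33) and under JSH-23 (0.78). The 2 genes overlap on the same strand, and how reads in the overlap were counted was not tested.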
